A study of Mus musculus with 6 samples.

Results

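The nuclear genes of the mitochondrial respiratory chain were followed in mouse primary osteoblasts with and without an acute deletion of Mark3. The genes were the protein-coding rows of the deposited count table, matched by Ensembl ID to the GENCODE M21 annotation, whose symbols began with Nduf, Uqc, Cox4 to Cox8 or Atp5, together with Sdha, Sdhb, Sdhc, Sdhd and Cyc1. The names matched 97 rows, and 92 of them reached a mean of at least 1 CPM (counts scaled to the size of the library) over the 6 libraries, of 51912 rows in the table. The 5 genes left out were Cox4i2, Cox7a1, Cox7b2, Cox8b and Cox8c. The kept genes with the lowest means were Ndufaf8 at 1.46 CPM and Cox6a2 and Ndufa4l2 at 1.75 CPM each, and the highest mean among those left out was 0.22 CPM for Cox7a1.

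Osteoblasts came from the skull bones of pups aged 1 day, of strain C57BL/6J, and every culture carried Mark3 flox/flox alleles. The 3 Mark3-KO libraries (genotype Mark3-/-) were made from cells given a Cre adenovirus for 24 h, and the 3 WT libraries from cells given a GFP adenovirus for 24 h. Both groups therefore had the floxed alleles and an adenovirus, and an effect of Cre itself and an effect of losing Mark3 cannot be told apart. The labels do not say whether replicates were separate pups, litters or cultures, and each p-value therefore reflects variation among the libraries alone, part of which may be technical.

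The respiratory chain carries electrons from NADH and succinate to oxygen and uses the energy to pump protons across the inner mitochondrial membrane. Complex I takes electrons from NADH, complex II from succinate, complex III passes them from ubiquinol to cytochrome c, complex IV hands them to oxygen, and complex V (ATP synthase) makes ATP from the returning protons. Most subunits are encoded in the nucleus, while a small number of core subunits of complexes I, III, IV and V are encoded by mitochondrial DNA. Osteoblasts use both glycolysis and oxidative phosphorylation, and the balance is known to shift as they differentiate.

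Library totals ran from 56925883 to 71445243 counts. Mark3, the kinase targeted by the deletion, measured 47.5, 52.3 and 44.1 CPM in Mark3-KO libraries 1 to 3, against 113, 117 and 117 CPM in WT libraries 1 to 3. It fell to 41.4% of the WT mean (log2 fold change -1.27 ± 0.1, SE, edgeR quasi-likelihood test, adjusted p = 0.0153), so Mark3 RNA remained in the cells; the labels do not give which exons were removed. All 10 osteoblast markers on a list (Col1a1, Runx2, Sp7 and others) passed the filter on low counts, and their summed level was 14590 to 21500 CPM in Mark3-KO libraries and 21620 to 43170 CPM in WT libraries. With a correction for GC content, described below, the sums overlapped, at 16790 to 21980 CPM in Mark3-KO and 21240 to 34300 CPM in WT. Of the 10 markers, 8 had a log2 fold change below 0 without the correction and 5 with it. The libraries did not stand in 2 tight groups: on the first principal component, which held 65.5% of the variance over genes, Mark3-KO libraries 1 to 3 stood at 15.7, 60.2 and 83.8 and WT libraries 1 to 3 at -90.2, -58.7 and -10.9. WT library 3 was thus nearer to Mark3-KO library 1 than to WT library 1.

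Summed over the 92 genes, respiratory chain RNA measured 6275, 5664 and 5317 CPM in Mark3-KO libraries 1 to 3, against 7279, 6497 and 6198 CPM in WT libraries 1 to 3. Mark3-KO library 1 lay above WT library 3, so the groups overlapped, and the Mark3-KO mean was 86.4% of the WT mean (5752 ± 485 against 6658 ± 558 CPM, SD, n = 3 each). On the same scale all genes tested summed to 92.4% of WT, so part of the difference was not particular to the chain. As a share of all counts, the 92 genes held 0.648%, 0.593% and 0.554% in Mark3-KO libraries 1 to 3. In WT libraries 1 to 3 the share was 0.669%, 0.627% and 0.621%. These are bulk cultures, in which fewer cells of a type and less RNA per cell cannot be told apart. Single genes spread far more widely than the sum, from Uqcr11 at 12.6% of its WT mean (log2 fold change -2.99) to Uqcrb at 157% (0.65). The median log2 fold change was -0.25, with 63 genes below 0 and 29 above, beside a median of 0.02 over all 19017 genes tested.

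No respiratory chain gene passed an adjusted p of 0.05 in either direction, where 0.216% of all tested genes did (41 genes, 32 lower and 9 higher, edgeR quasi-likelihood test with Benjamini-Hochberg adjustment). The threshold lay at the edge of a dense band of p-values, since the smallest adjusted p among the 92 genes was 0.0506. At an unadjusted p below 0.05, 37 genes were lower and 15 higher, 56.5% of the 92 against 45.7% of all genes tested and 54.6% of genes with a mean of at least 1 CPM. At an adjusted p below 0.1, the counts were 35 lower and 15 higher, against a background of 24% lower and 19.7% higher over all genes tested, and of 29.4% lower and 23.2% higher over genes with a mean of at least 1 CPM. DESeq2's Wald test called 31 lower and 14 higher at an adjusted p below 0.05 (background 38.6% in either direction), and limma-voom called none (background 0.142%). The CPM ranges of the groups did not overlap for 30 genes lower in Mark3-KO and 18 higher, 52.2% of the 92, against 53.3% of all genes tested and 62.7% of genes with a mean of at least 1 CPM. A log2 fold change below -1 was found for 23 of the 92 (25%), against 13.3% of all genes tested and 14.7% of genes with a mean of at least 1 CPM. No gene of the set exceeded 1, against 2.66% of all genes tested and 1.02% of genes with a mean of at least 1 CPM.

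**Figure D1:**
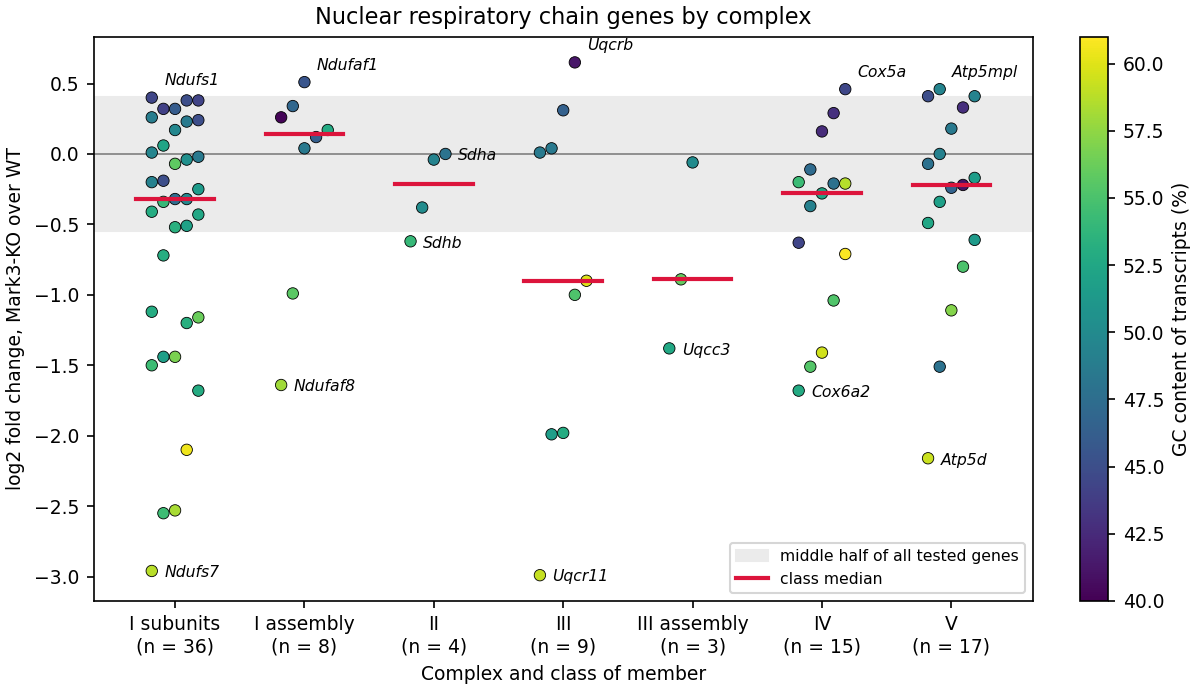
Log2 fold change (Mark3-KO over WT, vertical axis) of each of the 92 genes, placed by complex and coloured by the GC content of its transcripts, with red bars at class medians and a grey band for the middle 50% of all tested genes. Points reach furthest down in complex I subunits and complex III, to -2.96 and -2.99, and the points above 0 are mostly dark, which marks low GC content.

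Complex I subunits, the genes of the NADH dehydrogenase, had a median log2 fold change of -0.32 over 36 genes, and their summed level was 1397, 1226 and 1165 CPM in Mark3-KO libraries 1 to 3, against 1778, 1521 and 1362 CPM in WT libraries 1 to 3. The lowest was Ndufs7, the core subunit that holds the last iron-sulfur cluster before ubiquinone, with 3.13, 1.63 and 1.22 CPM in Mark3-KO libraries and 27.5, 13.7 and 5.57 CPM in WT libraries. All 3 Mark3-KO values lay below the lowest WT value (log2 fold change -2.96 ± 0.65, adjusted p = 0.0506 by edgeR). Ndufb7, an accessory subunit of the membrane arm, had 8.09, 3.84 and 3.28 CPM in Mark3-KO libraries, against 48.5, 27.9 and 12.6 CPM in WT libraries (-2.55 ± 0.57, adjusted p = 0.0506). In both genes the WT values themselves differed by more than 3-fold.

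Ndufs1 and Ndufv2, also core subunits of complex I, lay on the other side of 0. Ndufs1, the large iron-sulfur subunit of the NADH-oxidising arm, measured 135, 149 and 157 CPM in Mark3-KO libraries and 101, 110 and 123 CPM in WT libraries, with no overlap (0.40 ± 0.11, edgeR adjusted p = 0.0515). Ndufv2, which sits beside the flavin-binding subunit, had 84.1, 82.8 and 88.1 CPM in Mark3-KO libraries, against 61.7, 63.9 and 70.8 CPM in WT libraries (0.38 ± 0.09, adjusted p = 0.0506). The 7 core subunits thus ran from Ndufs7 at 12.8% of the WT mean to Ndufs1 at 132%. The median log2 fold change of the 29 accessory subunits was -0.32, with 9 of them above 0.

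The 8 complex I assembly factors of the Ndufaf series, which build the enzyme but are not part of it, were the only class whose mean summed level lay above WT (113%), and a correction for GC content, described with the base composition, put it at 97.0%. The sums were 81.99, 96.33 and 102.8 CPM in Mark3-KO libraries, against 82.81, 79.41 and 87.13 CPM in WT libraries, where Mark3-KO library 1 lay inside the WT range. Ndufaf1, a chaperone of the membrane arm, had 18, 19.8 and 21.9 CPM in Mark3-KO libraries and 12.4, 13.4 and 16.3 CPM in WT libraries (0.51 ± 0.15, edgeR adjusted p = 0.0551). Ndufaf5, which modifies Ndufs7 during assembly, had 12.6, 13.3 and 14.0 CPM in Mark3-KO libraries and 10.4, 9.74 and 11.4 CPM in WT libraries (0.34 ± 0.13, adjusted p = 0.084). Ndufaf3 lay on the other side of 0, with 3.31, 1.89 and 2.05 CPM in Mark3-KO libraries against 6.00, 4.92 and 3.50 CPM in WT libraries (-0.99 ± 0.30, adjusted p = 0.0557). Ndufaf4, which acts together with Ndufaf3, was uneven, at 9.55, 21.9 and 27.5 CPM in Mark3-KO libraries around WT values of 15.4, 15.5 and 18.2 CPM.

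Complex II, succinate dehydrogenase, has no subunit encoded by mitochondrial DNA. Its 4 genes had summed levels of 462.0, 414.4 and 399.5 CPM in Mark3-KO libraries and 486.2, 468.2 and 468.7 CPM in WT libraries, so the groups did not overlap. Sdhb, the iron-sulfur subunit, had 58.1, 44.1 and 41.2 CPM in Mark3-KO libraries, against 87.3, 71.7 and 61.2 CPM in WT libraries (-0.62 ± 0.19, edgeR adjusted p = 0.0548). Sdhc, a membrane anchor, had 80.7, 68.7 and 60.3 CPM in Mark3-KO libraries, against 96.2, 90.4 and 86.5 CPM in WT libraries (-0.38 ± 0.13, adjusted p = 0.0661). The flavoprotein Sdha averaged 225 CPM in Mark3-KO and 225 CPM in WT, and the second anchor Sdhd, the complex II gene with the highest level per length, averaged 82.6 ± 2.45 CPM in Mark3-KO and 84.9 ± 2.43 CPM in WT (SD, n = 3 each).

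Complex III, the cytochrome bc complex, spanned the full range of the set. Uqcr11, its smallest subunit, measured 6.19, 2.46 and 1.64 CPM in Mark3-KO libraries (457, 147 and 101 counts), against 47.2, 24.7 and 9.96 CPM in WT libraries (2756, 1362 and 669 counts). No Mark3-KO value reached the lowest WT value (log2 fold change -2.99 ± 0.71, adjusted p = 0.0506 by edgeR). Uqcrb, a subunit near the quinone site, measured 87.6, 85.2 and 90.1 CPM in Mark3-KO libraries, against 49.6, 53.3 and 65.0 CPM in WT libraries. Here every Mark3-KO value lay above the highest WT value (0.65 ± 0.12, adjusted p = 0.0506). Uqcrc1 and Uqcrc2, the paired core proteins of the same dimer, also lay on opposite sides of 0. Uqcrc1 had 67.8, 53.6 and 42.9 CPM in Mark3-KO libraries and 137, 108 and 83.1 CPM in WT libraries (-1.0 ± 0.23, adjusted p = 0.0506). Uqcrc2 had 145, 156 and 154 CPM in Mark3-KO libraries and 108, 115 and 142 CPM in WT libraries (0.31 ± 0.12, adjusted p = 0.097). Uqcrh, the hinge protein and the complex III gene with the highest level per length, averaged 111 CPM in Mark3-KO and 107 CPM in WT.

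Uqcrq, which binds near cytochrome b, depended on single libraries, with 3.04, 10.5 and 2.68 CPM in Mark3-KO libraries and 42.2, 19.7 and 2.40 CPM in WT libraries. WT library 3 was below all 3 Mark3-KO libraries for this gene. Of the 3 complex III assembly factors, Uqcc1 averaged 31.4 CPM in Mark3-KO and 32.8 CPM in WT, while Uqcc2 averaged 18.3 CPM in Mark3-KO and 33.9 CPM in WT, with Mark3-KO library 1 (22.6 CPM) above WT library 3 (21.5 CPM). Uqcc3 averaged 3.33 CPM in Mark3-KO and 8.66 CPM in WT.

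Complex IV, cytochrome c oxidase, had a median log2 fold change of -0.28 over 15 genes, and 12 of the 15 were below 0. Cox5a measured 80.5, 91.0 and 87.2 CPM in Mark3-KO libraries, against 57.9, 60.2 and 70.5 CPM in WT libraries, without overlap (0.46 ± 0.11, edgeR adjusted p = 0.0506). Cox7b, the other gene of the complex with no overlap and a higher level, averaged 94.4 ± 7.48 CPM in Mark3-KO and 84.4 ± 3.28 CPM in WT (0.16 ± 0.10, adjusted p = 0.227). Cox6b1, which joins the 2 monomers of the dimer and had the highest level per length in the complex, measured 108, 83.1 and 60.5 CPM in Mark3-KO libraries and 109, 98.3 and 98.3 CPM in WT libraries (-0.28 ± 0.20, adjusted p = 0.31). Cox4i1, the regulatory subunit found in most tissues, had 118, 76.9 and 63.0 CPM in Mark3-KO libraries and 233, 196 and 102 CPM in WT libraries. Mark3-KO library 1 lay above WT library 3 for Cox4i1 (-1.04 ± 0.35, adjusted p = 0.0678).

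Several complex IV subunits have a general form and a form known from other tissues, and the general form made up most of the RNA in every library. Cox4i1 supplied 99.8% to 99.9% of the summed Cox4i level per length in Mark3-KO libraries and 99.7% to 99.9% in WT libraries. Cox6a2, known in mice from heart and skeletal muscle, supplied 2.73%, 1.21% and 1.56% of the Cox6a level per length in Mark3-KO libraries, against 3.99%, 4.42% and 2.36% in WT libraries. Its level was 1.45, 0.536 and 0.569 CPM in Mark3-KO libraries, against 3.94, 3.03 and 1.33 CPM in WT libraries (-1.68 ± 0.54, edgeR adjusted p = 0.0615), and Mark3-KO library 1 overlapped WT library 3. The skeletal muscle markers were also lower: all 7 tested of 10 (Acta1, Myh3 and others) had a log2 fold change below 0, and their sum was 4.306 to 9.839 CPM in Mark3-KO libraries and 11.99 to 21.69 CPM in WT libraries. Ckm stood at 0.0246 CPM in Mark3-KO and 0.0658 CPM in WT, and the part of muscle cells in the Cox6a2 values was not tested. Cox8b, known from muscle and brown fat, reached at most 0.0744 CPM in a library. Ucp1 and Lep, which define brown and white fat, were at 0 counts in all 6, and the 6 fat cell markers summed to at most 0.8402 CPM in a library.

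Cox6b2, known from testis, and Ndufa4l2, known as a hypoxia-responsive relative of Ndufa4, did not overlap between groups. Cox6b2 had 2.20, 1.26 and 0.666 CPM in Mark3-KO libraries, against 5.17, 4.24 and 2.40 CPM in WT libraries (-1.51 ± 0.48, edgeR adjusted p = 0.0597). Ndufa4l2 had 1.25, 1.26 and 0.423 CPM in Mark3-KO libraries, against 3.05, 2.81 and 1.97 CPM in WT libraries (-1.41 ± 0.43, adjusted p = 0.0551). Ndufa4, named for complex I but placed in complex IV, supplied 98.6% to 99.6% of the level per length of the pair in Mark3-KO libraries and 95.4% to 97.9% in WT libraries. Cox7a2l is known as a factor of supercomplexes, in which respiratory complexes join, and its role in this mouse strain was not tested. It had 136, 114 and 112 CPM in Mark3-KO libraries and 167, 163 and 139 CPM in WT libraries (-0.37 ± 0.12, edgeR adjusted p = 0.0628).

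Complex V genes were the most abundant of the chain, with a summed level of 2679, 2485 and 2321 CPM in Mark3-KO libraries and 2953, 2731 and 2686 CPM in WT libraries. Atp5b, the catalytic beta subunit, had the highest level per length of all 92 genes (207 CPM per kilobase of exon over the 6 libraries) and averaged 857 ± 70.7 CPM in Mark3-KO and 900 ± 38.1 CPM in WT (-0.07 ± 0.10, edgeR adjusted p = 0.604). Atp5d, the delta subunit of the central stalk, measured 28.7, 13.0 and 9.25 CPM in Mark3-KO libraries, against 115, 71.6 and 40.9 CPM in WT libraries (-2.16 ± 0.53, adjusted p = 0.0506). Atp5j, coupling factor 6 of the peripheral stalk, measured 112, 113 and 121 CPM in Mark3-KO libraries, against 82.1, 83.8 and 94.0 CPM in WT libraries (0.41 ± 0.09, adjusted p = 0.0506). Atp5mpl, a small membrane subunit, measured 66.2, 58.6 and 59.2 CPM in Mark3-KO libraries, against 41.4, 42.1 and 49.9 CPM in WT libraries (0.46 ± 0.12, adjusted p = 0.0506).

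Atp5g1, Atp5g2 and Atp5g3 encode the same mature subunit c, the rotating ring of ATP synthase, behind different import signals. Atp5g1 had 34.3, 18.1 and 10.8 CPM in Mark3-KO libraries, against 71.1, 65.9 and 43.0 CPM in WT libraries (-1.51 ± 0.43, edgeR adjusted p = 0.0518). Atp5g2 had 54.3, 40.2 and 27.7 CPM in Mark3-KO libraries, against 107, 88.6 and 67.2 CPM in WT libraries (-1.11 ± 0.28, adjusted p = 0.0506). Atp5g3 had 73.2, 147 and 77.6 CPM in Mark3-KO libraries, with library 2 far above the other 2, against 111, 111 and 129 CPM in WT libraries (-0.24 ± 0.27, adjusted p = 0.517). Atp5g3 supplied 46.0%, 70.8% and 65.5% of the level per length of the 3 genes in Mark3-KO libraries and 39.3%, 43.4% and 54.7% in WT libraries, while Atp5g1 supplied 9.56%, 3.88% and 4.06% in Mark3-KO libraries and 11.2%, 11.5% and 8.12% in WT libraries. Copies of the subunit c genes elsewhere in the genome could take or give reads in counting, so these shares are uncertain.

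**Figure D2:**
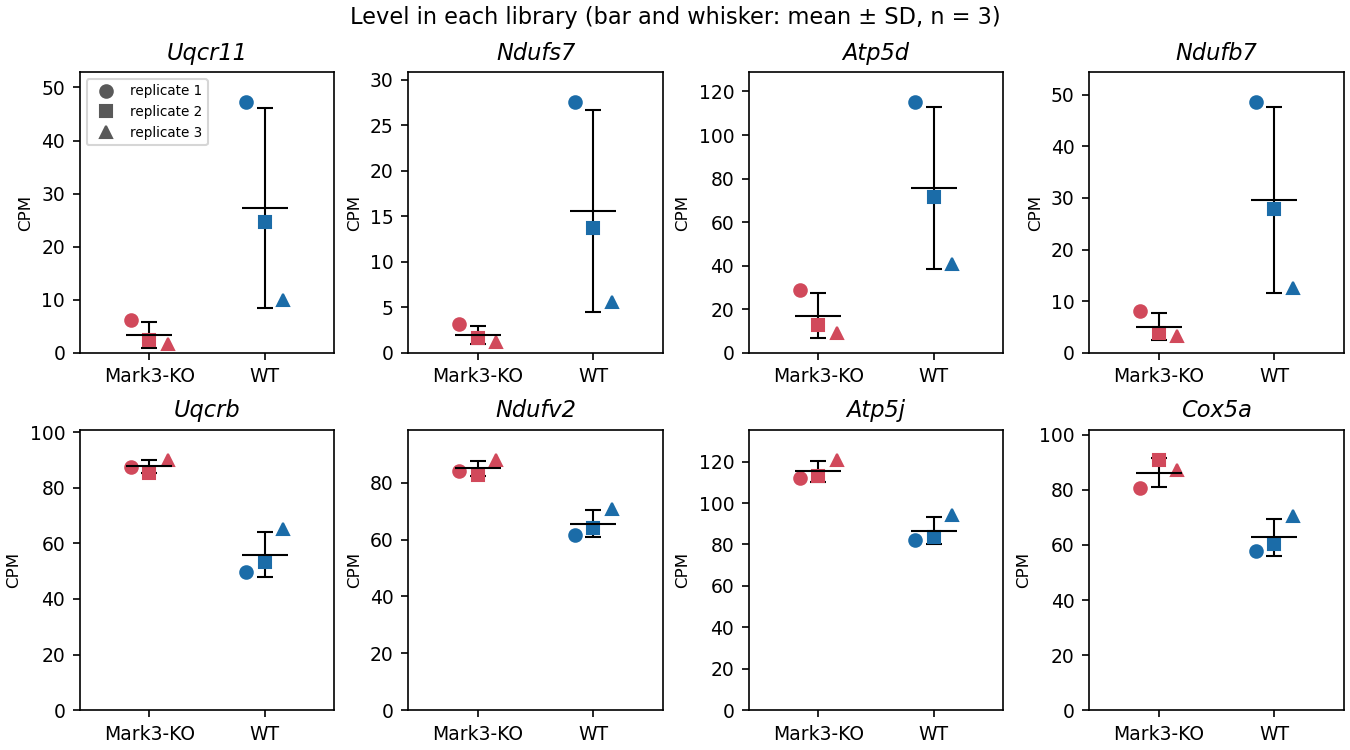
Level of selected genes in each library (CPM, vertical axis from 0), with Mark3-KO libraries left of WT libraries, a marker shape for each replicate, and a bar and whiskers at mean ± SD (n = 3). Uqcr11, at 1.64 to 6.19 CPM in Mark3-KO libraries and 9.96 to 47.2 CPM in WT libraries, and Uqcrb, at 85.2 to 90.1 CPM in Mark3-KO libraries and 49.6 to 65.0 CPM in WT libraries, stand apart in opposite directions.

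The order of the 6 libraries recurred from gene to gene. Mark3-KO library 3 held the lowest or highest value in 69 of the 92 genes, and WT library 1 did so in 71. The same libraries stood at the ends of the first principal component over all tested genes (83.8 and -90.2). No share over all genes was computed for these counts, so whether they are particular to the chain was not tested. WT library 3 was nearer to Mark3-KO library 1 than to WT library 1 for 68 of the 92, beside 69.9% of all genes tested. The fold changes also followed base composition, measured as the percentage of G and C over the annotated GENCODE M21 transcripts of each gene. Across the 92 genes, log2 fold change and GC content had a Pearson r of -0.72 and a Spearman rho of -0.77, and across 18965 tested genes with a value the figures were -0.74 and -0.81. Genes share libraries and are not independent replicates, so these are descriptions. Within the 92 genes, coding GC content gave r = -0.73 and the third codon position r = -0.72, while the log10 of exonic length gave r = 0.26.

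The genes were split by GC content into 4 groups of 23. The median log2 fold change was 0.31 from 40.18% to 47.49% GC and -0.0 from 47.75% to 50.49%. It was -0.52 from 51.35% to 54.06% and -1.16 from 54.31% to 60.87%. All tested genes in the same 4 bands had medians of 0.39, 0.05, -0.35 and -0.95. In the lowest GC band 17 of 23 genes were above 0, and in the highest none was. Some genes departed from this relation, such as Atp5g1 (47.88% GC, log2 fold change -1.51), Atp5l (41.0%, -0.22) and Cox8a (58.63%, -0.21). Genes of complexes I and III, chosen by their fold changes, show the relation in their own letters. Their coding sequences are printed below from the start codon, taken from the GENCODE M21 transcripts on GRCm38, for the lowest and highest gene of complex III and for the lowest and a higher core gene of complex I, with every G and C in capitals. Uqcr11 is shown whole (171 bases, chr10:80402997-80406830, minus strand) and the first 171 bases are shown for Uqcrb (chr13:66900617-66905378, minus strand), Ndufs7 (chr10:80249121-80256794, plus strand) and Ndufv2 (chr17:66078638-66101559, minus strand), where each interval is that of the gene.
Uqcr11: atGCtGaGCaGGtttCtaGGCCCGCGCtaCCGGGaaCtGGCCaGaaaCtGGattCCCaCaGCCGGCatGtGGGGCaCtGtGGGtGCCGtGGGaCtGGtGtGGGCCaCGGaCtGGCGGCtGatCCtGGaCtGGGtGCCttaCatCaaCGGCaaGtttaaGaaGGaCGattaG
Uqcrb: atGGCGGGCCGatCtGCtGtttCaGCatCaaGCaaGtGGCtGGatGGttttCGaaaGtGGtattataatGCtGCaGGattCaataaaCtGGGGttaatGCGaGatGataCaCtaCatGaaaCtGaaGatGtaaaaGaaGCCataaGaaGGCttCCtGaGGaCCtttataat
Ndufs7: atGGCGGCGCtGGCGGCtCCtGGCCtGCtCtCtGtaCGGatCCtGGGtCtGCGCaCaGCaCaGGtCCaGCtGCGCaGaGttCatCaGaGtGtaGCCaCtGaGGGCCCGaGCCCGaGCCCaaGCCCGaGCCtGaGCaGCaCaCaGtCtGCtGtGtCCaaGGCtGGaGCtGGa
Ndufv2: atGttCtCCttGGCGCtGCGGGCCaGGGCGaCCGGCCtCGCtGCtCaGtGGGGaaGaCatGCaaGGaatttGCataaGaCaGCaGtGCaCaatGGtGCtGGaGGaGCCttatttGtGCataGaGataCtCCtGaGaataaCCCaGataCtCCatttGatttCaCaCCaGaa
G and C made up 60.2% of the Uqcr11 stretch, against 42.1% of the Uqcrb stretch, and 65.5% of the Ndufs7 stretch, against 51.5% of the Ndufv2 stretch. Over whole transcripts the GC content was 59.17% for Uqcr11 and 41.27% for Uqcrb, and 58.78% for Ndufs7 and 44.24% for Ndufv2.

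A smooth curve of GC content was then fitted in each library and used as an offset in edgeR. The fit takes out the GC relation by design, so its loss is not a result. A difference between the groups that goes with GC content is taken out too, whatever its source. With the correction, the median log2 fold change of the 92 genes was -0.12, and r with GC content was -0.15. The medians became -0.11 for complex I subunits, -0.09 for complex I assembly, -0.08 for complex II, -0.05 for complex III, -0.29 for complex IV and -0.13 for complex V. Some genes above WT lay close to 0 with it, such as Ndufs1 (0.02), Ndufv2 (-0.01), Uqcrb (0.12) and Cox5a (0.08). Others had the opposite sign. Cox8a measured 63.1 CPM in Mark3-KO and 73.2 CPM in WT, and its log2 fold change was -0.21 without the correction and 0.95 with it. For Cox6a1 the values were -0.71 without it and 0.73 with it. Several of the lower genes described above also lay closer to 0 with it. These were Ndufaf3 (-0.17), Sdhb (-0.05), Uqcrc1 (-0.25), Uqcc2 (0.01), Cox4i1 (-0.29), Cox6b2 (-0.76), Ndufa4l2 (-0.16), Atp5d (-0.88) and Atp5g2 (-0.10), while Atp5g1 was at -1.64. Among the higher ones, Ndufaf1 was at 0.20, Ndufaf5 at 0.13 and Uqcrc2 at 0.07. The summed level of the 92 genes was 91.8% of WT with the correction, with complex I subunits at 92.0%, complex II at 91.7%, complex III at 93.6%, complex IV at 93.8% and complex V at 90.5%. All genes tested summed to 95.7% of WT with it.

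After the correction, 12 of the 92 had a log2 fold change below -1 (13%), against 2.7% of all genes tested and 2.43% of genes with a mean of at least 1 CPM. They were Ndufb7 (-1.91), Uqcrq (-1.70), Uqcr11 (-1.66), Ndufs7 (-1.64), Atp5g1 (-1.64), Uqcr10 (-1.61), Ndufa11 (-1.42), Cox6a2 (-1.32), Ndufa7 (-1.31), Ndufa2 (-1.21), Uqcc3 (-1.04) and Cox7c (-1.02), a list chosen after its values were seen. Of the complex I genes on the list, Ndufs7 is a core subunit, and Ndufb7, Ndufa11, Ndufa7 and Ndufa2 are accessory subunits. Uqcrq, Uqcr10 and Uqcr11 are small subunits of complex III, and Uqcrq depended on single libraries. None of the 92 passed an adjusted p of 0.05 with the correction, where 0.405% of all tested genes did, and the smallest adjusted p was 0.0935 for Atp5j (log2 fold change 0.42 ± 0.07). Atp5j and Atp5mpl, at 0.42 and 0.48, kept nearly the value they had without it. Mark3 itself was at -1.50 with the correction (adjusted p = 0.00332).

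**Figure D3:**
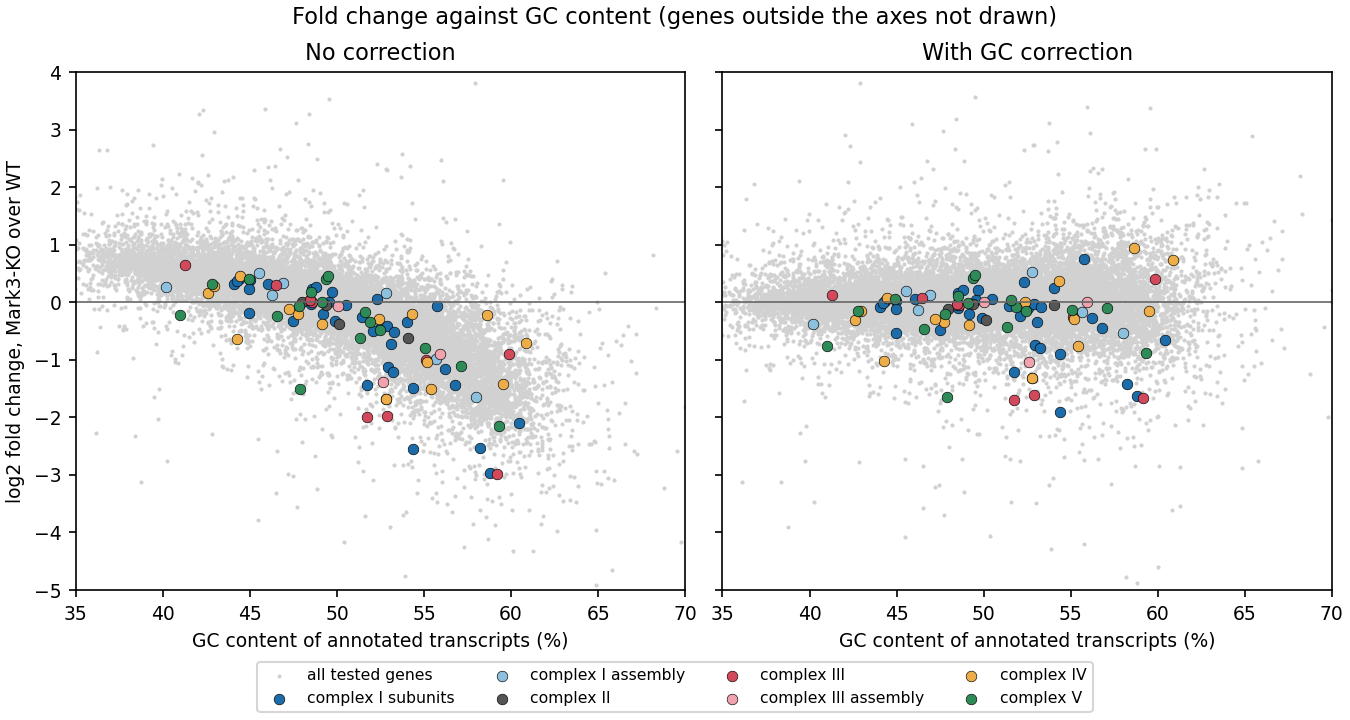
Log2 fold change (Mark3-KO over WT, vertical axis) against GC content of annotated transcripts (%, horizontal axis) for all tested genes in grey and the 92 respiratory chain genes in colour by class, without correction on the left and with the GC correction on the right. The coloured points follow the slope of the grey cloud on the left (r = -0.72). On the right, where the fit takes out the slope by design, they scatter around 0 with 12 genes below -1.

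Counting could mix some genes with a neighbour. Of the 92 genes, 32 share exon bases with another annotated gene, and the library kit named in the labels does not mark strand. Atp5j shares 397 exon bases with Gabpa, which lies head to head with it on the opposite strand and encodes the DNA-binding part of nuclear respiratory factor 2. Gabpa averaged 90.8 CPM in Mark3-KO and 74.3 CPM in WT, and reads of the shared stretch cannot be told apart.

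Promoters of respiratory chain genes are known for binding sites of NRF1, of the ETS factor GABPA and of YY1, and the sequences of the genes at hand were searched for them. RefSeq promoters of the GRCm38.p6 build covered 250 bases before and 50 bases after the start of transcription. They were matched by symbol or synonym for 76 of the 92 genes, and motifs were searched on both strands. The NRF1 motif, GCGC and TGCGC with any base between them, was found for 26.3% of these genes. Its share was 5.19% over all genes with a promoter and 7.17% over the protein-coding ones. The GABPA motif CCGGAAG was found for 23.7%, against 9.93% of all genes and 12.9% of protein-coding ones. In the same order, the YY1 motif AAGATGGC was found for 15.8%, against 3.19% and 3.57%. The TATA motif TATAAA was found for 6.58%, against 15.7% and 14.8%. A CCAAT box was found for 44.7%, against 41.1% and 42.3%. The longer NRF1 motif was in 15 of 52 genes with a negative log2 fold change and in 5 of 24 with a positive one, and CCGGAAG in 14 of the 52 and 4 of the 24, while TATAAA was in 5 of the 52 and 0 of the 24. Promoter GC content gave r = 0.2 with log2 fold change over the 76 genes.

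The promoters of Uqcr11 (chr10:80406772-80407071, minus strand) and Atp5j (chr16:84834927-84835226, minus strand) are printed from RefSeq, because these genes lie on opposite sides of 0 and both hold motifs of this group. Capitals mark the ETS motif in both, the shorter NRF1 motif GCGCATGC on the opposite strand in Uqcr11, and the YY1 motif in Atp5j. Atp5j has a second promoter in the table, without any of these motifs.
Uqcr11: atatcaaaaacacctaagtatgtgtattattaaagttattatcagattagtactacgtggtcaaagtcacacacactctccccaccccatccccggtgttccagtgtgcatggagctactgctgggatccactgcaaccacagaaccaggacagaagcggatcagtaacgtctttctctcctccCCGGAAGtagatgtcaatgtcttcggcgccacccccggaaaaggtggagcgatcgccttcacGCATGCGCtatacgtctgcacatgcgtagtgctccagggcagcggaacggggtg
Atp5j: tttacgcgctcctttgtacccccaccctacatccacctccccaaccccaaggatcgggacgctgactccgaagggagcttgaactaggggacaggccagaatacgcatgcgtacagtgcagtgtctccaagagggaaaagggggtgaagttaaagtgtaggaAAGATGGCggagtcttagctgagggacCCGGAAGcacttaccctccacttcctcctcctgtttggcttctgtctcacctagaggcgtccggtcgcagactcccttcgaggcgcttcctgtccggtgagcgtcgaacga
Both promoters carry CCGGAAG in the same orientation as the gene, while Uqcr11 measured 12.6% and Atp5j 133% of the WT mean. A match is a run of letters and does not show that a factor bound there.

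Other genes that build or serve the chain gave a background for its classes. The 41 tested assembly factors outside the name rule (Surf1, Sco1, Bcs1l and others) had a median log2 fold change of -0.06. At an adjusted p below 0.1 by edgeR, 12 of them were lower and 7 higher. The counts of the lists that follow use the same threshold. Over all genes tested it gave 24% lower and 19.7% higher. Over genes with a mean of at least 1 CPM it gave 29.4% lower and 23.2% higher. Mitochondrial ribosomal proteins had a median of -0.24 over 78 genes, with 26 lower and 9 higher, and their sum stood at 88.1% of WT. Cytosolic ribosomal proteins had a median of -0.60 over 88 tested genes and a sum at 70.8% of WT, with 50 lower and 8 higher. The 17 genes of electron carriers and coenzyme Q synthesis had a median of -0.26, with 7 lower and 4 higher, and the 14 genes of the tricarboxylic acid cycle a median of -0.18, with 5 lower and 2 higher. Cycs, cytochrome c, had 92.9, 93.8 and 93.7 CPM in Mark3-KO libraries, against 67.5, 68.9 and 79.6 CPM in WT libraries (0.38, edgeR adjusted p = 0.0506). Without the GC correction edgeR called no gene of these lists at an adjusted p of 0.05, and with it 1 cytosolic and 1 mitochondrial ribosomal protein gene were called lower.

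The 6 tested subunits encoded by mitochondrial DNA all had a log2 fold change above 0. For mt-Co1, the catalytic subunit of complex IV, the levels were 13300, 14900 and 20900 CPM in Mark3-KO libraries, against 7370, 8140 and 10600 CPM in WT libraries (0.91, edgeR adjusted p = 0.0506). The 6 tested genes had a median log2 fold change of 0.82, which became 0.05 with the GC correction, and their GC content was 34.1% to 39.9%. The sum of all 13 was 173% of WT without the correction, and that of the 6 tested genes was 116% with it. Of the 13 genes, 6 were listed at 0 in all libraries. The untested mt-Nd5 was at 0 in all but WT library 2 (1690 CPM), a value that is part of the sum of all 13.

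**Figure D4:**
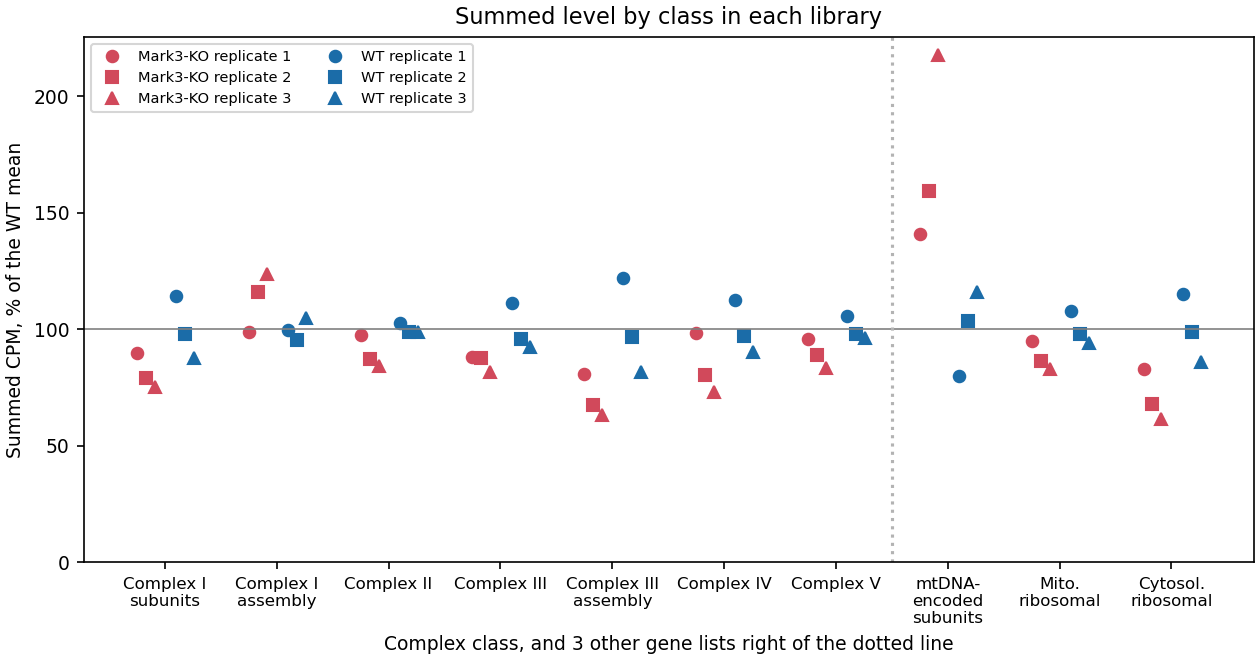
Summed CPM of each class in each library as a percentage of the WT mean (vertical axis from 0), Mark3-KO libraries left of WT libraries, with 3 other gene lists right of the dotted line. Subunit classes of the nuclear chain lie under the WT mean in all Mark3-KO libraries, complex I assembly reaches above it (97.0% in the mean with the GC correction), and the mitochondrial DNA list stands at 173% of WT in the mean (116% for its 6 tested genes with the GC correction). All genes tested, not drawn, sum to 92.4% of WT in the mean on this scale.

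Among 20 regulators of mitochondrial genes, the median log2 fold change was 0.13. At an adjusted p below 0.1 by edgeR, 7 were lower and 8 higher, against 24% lower and 19.7% higher over all genes tested. Esrra, the estrogen-related receptor alpha that activates many respiratory chain genes, measured 3.06, 1.29 and 0.845 CPM in Mark3-KO libraries, against 23.0, 13.6 and 4.72 CPM in WT libraries (-2.98, edgeR adjusted p = 0.0506). With the GC correction its value was -1.74 (adjusted p = 0.104). Polrmt, the mitochondrial RNA polymerase, averaged 3.72 CPM in Mark3-KO and 16.6 CPM in WT (-2.15, and -0.67 with the correction). Nrf1 averaged 21.5 CPM in Mark3-KO and 31.7 CPM in WT (-0.56, and -0.41 with the correction). Tfam, which packages mitochondrial DNA, averaged 40.4 CPM in Mark3-KO and 31.5 CPM in WT (0.36, and -0.03 with the correction). Ppargc1a, the coactivator of mitochondrial biogenesis, was low in both groups, at 0.714 CPM in Mark3-KO and 0.759 CPM in WT.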

How the data were processed

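RNA sequencing of 6 libraries, 3 Mark3-KO and 3 WT, gave 1 deposited table of raw gene counts (whole numbers, not normalized). Per the submitters' processing notes, HISAT2 2.0.5, StringTie, FastQC and DESeq2 were used with the GRCm38 build; their order, settings and annotation release are not given in the sources used here. Of 51912 rows, 51719 matched GENCODE M21 by ID. Genes passing edgeR's filterByExpr (19017) were tested, Mark3-KO over WT, with the quasi-likelihood test (edgeR 4.0.16, R 4.3.3), TMM scaling and Benjamini-Hochberg adjustment over all of them, and a threshold of 0.05. CPM uses TMM-scaled library sizes, and the level per length divides it by the exonic length of the annotation. Totals of 56925883 to 71445243 counts leave counting error small beside the spread of libraries for most of the 92 genes.

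DESeq2 1.42.0, limma-voom (limma 3.58.1), other scalings and filters, a GC correction (natural spline of 6 degrees of freedom per library as an offset), a GC and length correction, a replicate block and left-out libraries were alternatives. The fits were tested on simulated data. Same-numbered libraries correlated at 0.329, -0.0325 and 0.292 in their deviations from the group means. The labels do not state pairs, and the numbers were not taken as pairs outside the replicate block. Genes named were, in each class, up to 2 lower and 2 higher genes with the smallest p among those not overlapping, the highest per length, and fixed isoform sets; others named were chosen after their values were seen. A gene that this rule names is not reported here. The members and lists were chosen with earlier results of these data known.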

Additional observations from a re-analysis of the deposited data

How the results depend on the processing

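With 3 libraries a group, the direction of most named genes held in each alternative, while counts of calls depended on the setting, and 8317 of all genes had an adjusted p below 0.1, beside 41 below 0.05. DESeq2's size factors and no filter gave the same 0 calls among the 92 genes; limma-voom called 27 of all genes. DESeq2's Wald test called 31 lower and 14 higher (48.9% of the 92, against 38.6% of all genes, 6915). Library size alone called 17 and 9 (28.3%, against 23.8%, 4533 genes). A filter of 1 CPM in 3 libraries gave 23 and 12 (38%, against 37.4%, 5266 genes). An adjusted p below 0.1 gave 35 and 15 (54.3%, against 43.7%, 8317 genes). The replicate block called 42 and 15 (62% of the 92, against 44.6% of all genes, 8487). With GC correction the replicate block called 19 and 3 (23.9%, against 5.27%, 1002 genes). The labels do not say whether the numbers pair the libraries. Mark3-KO libraries 1 and 3 correlated best with the WT library of their own number (0.329 and 0.292). Mark3-KO library 2 correlated best with WT library 3 (0.0907), so the correlations do not settle it.

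Leaving out 1 library each gave 0 to 35 of the 92 lower, 0 to 10 higher, and 0 to 6460 of all genes called. The high counts came without WT replicate 3 (33 and 10, beside 32.9% of all genes) and without Mark3-KO replicate 1 (35 and 9, beside 32.1%), the libraries nearest the other group; without WT replicate 2 none of all genes was called by edgeR, with 28 of the 92 lower and 6 higher at an unadjusted p below 0.05 (30.1% of all genes). Without WT 1 and Mark3-KO 3 together, 0 of all genes were called by edgeR, with 18 of the 92 lower and 5 higher at an unadjusted p below 0.05 (17% of all genes). The medians were then -0.06 for complex I subunits, -0.38 for complex III assembly, -0.06 for complex IV and -0.07 for all 92, and log2 ratios of sums -0.10 for complex III, -0.07 for complex V and -0.09 for all 92. In that setting Uqcrh (-0.05), Cox7a2 (0.04), Cox8a (0.07) and Atp5b (0.01) changed sign. Leaving out 1 library, Uqcrh ran from -0.05 to 0.15 and Cox7a2 from -0.34 to 0.01.

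Library size alone gave medians of 0.26 for complex I assembly and -0.10 for complex II, log2 ratios of sums of -0.04 for complex II, -0.10 for complex III and -0.05 for complex V, and turned Sdhd (0.08) and Atp5b (0.05) above 0.

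The GC correction called 77 of all genes. Its medians were -0.11 for complex I subunits, -0.09 for complex I assembly, -0.08 for complex II, -0.05 for complex III and 0.01 for complex III assembly. Its log2 ratios of sums were -0.12 for complex I subunits, -0.04 for complex I assembly, -0.10 for complex III and -0.08 for complex III assembly. It reversed Ndufv2 (-0.01), Uqcrh (-0.03), Cox6a1 (0.73), Cox6b1 (0.01), Cox7b (-0.31), Cox8a (0.95) and Ndufa4 (-0.16). With length added, 69 of all genes were called. The medians were -0.11 for complex I assembly, -0.11 for complex II, -0.09 for complex III and 0.01 for complex III assembly, and the log2 ratios of sums -0.07 for complex I assembly and -0.06 for complex III assembly. The same 7 genes reversed: Ndufv2 (-0.08), Uqcrh (-0.05), Cox6a1 (0.74), Cox6b1 (0.01), Cox7b (-0.34), Cox8a (0.95) and Ndufa4 (-0.20). With the replicate block and GC correction the medians were -0.10 for complex I subunits, -0.09 for complex I assembly, -0.09 for complex II, -0.05 for complex III and 0.01 for complex III assembly, and Ndufv2 (-0.01), Uqcrh (-0.03), Cox6a1 (0.74), Cox7b (-0.32), Cox8a (0.99) and Ndufa4 (-0.15) reversed. The cause was not tested in any of these cases.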
